A study of Mus musculus with 4 samples.

Results

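Polyamine synthesis and turnover was followed through 10 genes chosen by symbol: Odc1, Srm, Sms, Sat1, Amd1, Azin1, Oaz1, Oaz2, Paox and Smox. Of these, 6 had a probe set annotated with that symbol alone, among 19938 genes measured in this way, and they are the ones with values here: Odc1, Srm, Azin1, Oaz2, Sat1 and Smox. Sms and Oaz1 lie only on probe sets that carry a further symbol, and Amd1 and Paox are not listed in the platform annotation, so these 4 were not analysed here. The 4 microarrays measured total RNA of leukemic whole bone marrow from C57BL/6 mice, 2 from Hes1 null and 2 from wild-type leukemia. On all 4 arrays the leukemia carries MLL-AF9, a fusion of MLL with AF9 that drives acute myeloid leukemia. The genotypes are MLL-AF9/Hes1-/- and MLL-AF9/Hes1+/+. The comparison addresses the role of Hes1, a transcriptional repressor induced by Notch signalling, in this leukemia. Whole marrow was not sorted, and the labels do not say how many animals an array represents, so p-values measure only the spread between these arrays, which may be technical.

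Putrescine, spermidine and spermine are small polycations that bind RNA and DNA and are needed by dividing cells. Ornithine decarboxylase (Odc1) makes putrescine, and aminopropyl transfer by spermidine synthase (Srm) and spermine synthase (Sms) lengthens it. Antizymes (Oaz1, Oaz2) send ornithine decarboxylase to the proteasome, and antizyme inhibitor (Azin1) frees it. Spermidine/spermine acetyltransferase (Sat1) starts the way back with the oxidase Paox, while spermine oxidase (Smox) turns spermine directly into spermidine. Odc1 is a well-known transcriptional target of MYC.

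Smox stood apart from the other members: both of its Hes1 null arrays lay below the wild-type pair, by about 2-fold. Oaz2 was higher on both Hes1 null arrays by a smaller amount. For Odc1, Srm, Azin1 and Sat1 the 2 Hes1 null arrays lay on opposite sides of the wild-type pair. Their mean differences ran from -0.37 for Srm to 0.03 for Odc1 (log2). Limma's moderated test called 0 of the 6 at an adjusted p of 0.05, where 0.145% of all genes were called, and 1 of the 6, Smox, at an unadjusted p of 0.05, where 8.29% of all genes were. Genotypes did not overlap for 2 of the 6, against 38.0% of all genes. The median log2 difference of the 6 was -0.10 and that of all genes -0.02.

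**Figure D1:**
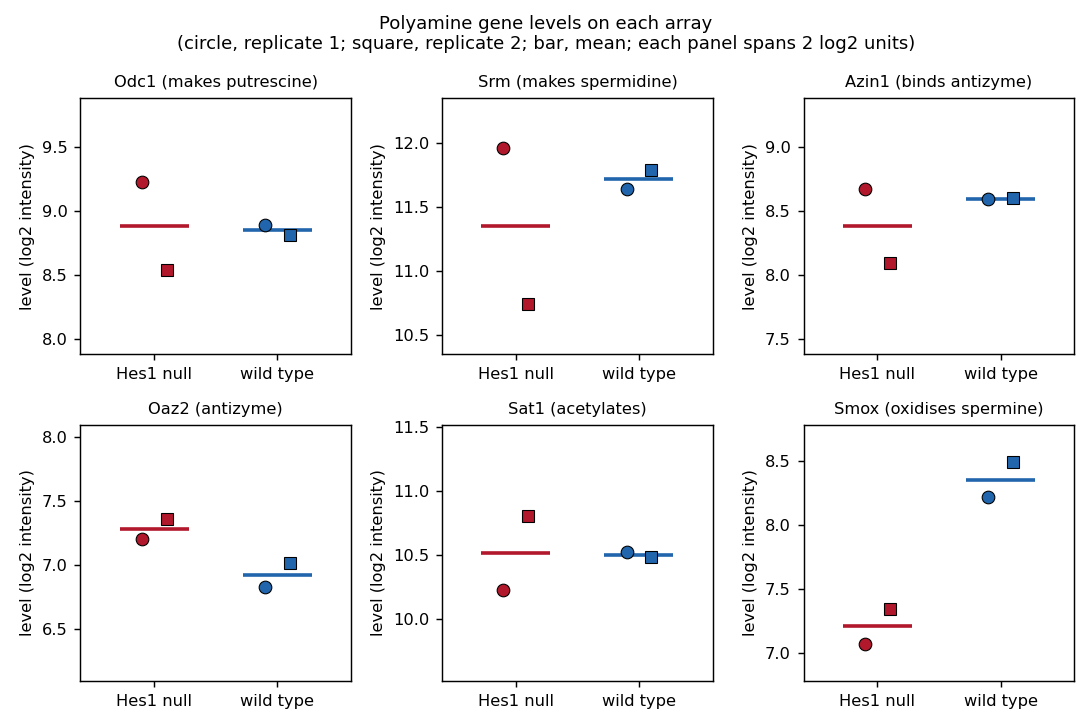
Level of each measured polyamine gene (y axis, log2 intensity) on each of the 4 arrays, Hes1 null in red and wild type in blue, with a bar at each genotype's mean (n = 2). Each panel spans the same 2 log2 units, and the genotypes lie apart for Smox and Oaz2 only among the 6.

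Hes1 null replicate 2 stood apart from the other 3 arrays in Xist, the noncoding RNA of X inactivation. Its level was 7.25 there, against at least 11.73 on the others, while 4 Y-linked genes did not exceed 4.09 on any array. The Hes1 null arrays lay at least 2-fold apart for 683 genes and the wild-type arrays for 109. Hes1 itself had levels of 5.43 and 5.84 on the Hes1 null arrays, against 5.59 and 5.79 on the wild-type arrays, so its probe set did not separate the genotypes. Each of these levels was below the median gene level of 6.36, so the probe set was dim in both genotypes. Whether that probe set falls within the deletion is not given by the labels. Defining genes of blood and of this leukemia were well measured on every array: Ptprc ran from 10.38 to 10.50, Spi1 from 11.53 to 11.78, Hoxa9 from 10.40 to 10.78 and Meis1 from 9.18 to 9.81 (log2 levels). Kit, the other gene of that list and a receptor of progenitor cells, was less even, at 8.29 and 6.39 on the Hes1 null arrays, against 9.02 and 8.87 on the wild-type arrays. The lowest level of a polyamine gene on any array was 6.83, and all 6 had a mean level above the median of genes.

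Smox, the spermine oxidase gene, releases hydrogen peroxide and an aldehyde through its product as spermine is broken down. Its log2 level was 7.07 and 7.34 on the Hes1 null arrays, against 8.22 and 8.49 on the wild-type arrays, which is 134 and 162 against 297 and 359 in deposited intensity. Both Hes1 null arrays were low. The nearest arrays of the genotypes were 0.87 apart, wider than the gap within either genotype, which was 0.27 in both. The difference was -1.15 ± 0.20 (SE, n = 2 arrays per genotype, 95% interval -1.64 to -0.65), a 2.21-fold lower level. By limma the unadjusted p was 0.00156, with 0.918% of genes at a smaller one. After adjustment it was 0.169, and Smox did not pass over all genes. Read one array at a time, Hes1 null replicate 1 lay 1.28 below the wild-type mean and replicate 2 lay 1.01 below it (log2). In whole marrow, fewer cells that express Smox and less Smox RNA per cell cannot be told apart.

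Most of the listed markers of myeloid cells were lower on the same arrays as Smox. The monocyte and macrophage list had summed intensities of 5816 and 5949 on the Hes1 null arrays, against 9828 and 9218 on the wild-type arrays, and 7 of its 8 measured genes were below the wild-type pair on both Hes1 null arrays, as were 20.6% of all genes. For primary granule genes the sums were 14813 and 11914 on the Hes1 null arrays, against 27263 and 26395 on the wild-type arrays, with 5 of 6 genes below in the same way. The neutrophil list summed to 6304 and 9202 on the Hes1 null arrays, against 10703 and 17513 in wild type, with 6 of 8 below. The exceptions in these lists were Cd68, Ctsg and Mmp8, above the wild-type pair on both Hes1 null arrays, and Ngp, whose genotypes overlapped. T cell, platelet and stromal lists also summed lower on both Hes1 null arrays. The T cell sums were 355 and 316 in Hes1 null, against 878 and 554 in wild type, with 5 of 6 genes below. Cd28 was the main part (log2 levels of 6.14 and 6.07, against 9.07 and 7.86 in wild type). Cd3d was above the wild-type pair on both Hes1 null arrays. Cd3d, Cd3g, Cd4 and Cd8a were dim, below the median gene level of 6.36 on every array. The platelet sums were 339 and 320 in Hes1 null, against 503 and 644 in wild type, with 4 of 5 genes below. The stromal sums were 1110 and 800 in Hes1 null, against 2229 and 2479 in wild type, with 3 of 6 genes below and Lpl the main part (log2 levels of 8.23 and 7.23, against 10.30 and 10.62 in wild type). Sums overlapped between genotypes for the B cell list (1577 and 852 in Hes1 null, against 1079 and 1070 in wild type) and the erythroid list (613 and 677 in Hes1 null, against 807 and 648 in wild type). Immediate early genes, listed because sample handling can induce them, ran the other way, at 10361 and 16550 on the Hes1 null arrays, against 3235 and 3529 on the wild-type arrays. An array intensity has no true zero, so no marker is at 0. The part of these cells, or of handling, in the Smox difference was not tested.

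The promoters of Smox and Oaz2 are shown because these are the members whose genotypes lay apart, and that of Odc1 because it starts the pathway. Each runs from 250 bases before to 50 after the RefSeq gene start in GRCm38.p6, on the plus strand. The 3 motifs searched on both strands were the E-box CACGTG, bound by MYC with MAX, and the class C site CACGCG and N-box CACNAG, both known as binding sequences of HES family repressors. Capitals mark every match, and no matches overlap each other in these windows.
Smox, chr2:131491612-131491911: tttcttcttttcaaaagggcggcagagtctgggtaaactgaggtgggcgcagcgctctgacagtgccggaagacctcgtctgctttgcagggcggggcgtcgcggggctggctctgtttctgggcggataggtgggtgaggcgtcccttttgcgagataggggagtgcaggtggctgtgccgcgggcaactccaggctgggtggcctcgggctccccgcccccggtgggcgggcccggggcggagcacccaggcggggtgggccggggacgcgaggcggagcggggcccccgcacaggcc
Oaz2, chr9:65676298-65676597: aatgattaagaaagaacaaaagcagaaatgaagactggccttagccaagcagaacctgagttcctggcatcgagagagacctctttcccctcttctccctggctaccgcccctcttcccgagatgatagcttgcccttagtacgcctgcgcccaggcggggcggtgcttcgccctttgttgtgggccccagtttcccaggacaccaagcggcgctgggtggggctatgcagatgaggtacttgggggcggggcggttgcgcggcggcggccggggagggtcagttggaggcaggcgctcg
Odc1, chr12:17544623-17544922: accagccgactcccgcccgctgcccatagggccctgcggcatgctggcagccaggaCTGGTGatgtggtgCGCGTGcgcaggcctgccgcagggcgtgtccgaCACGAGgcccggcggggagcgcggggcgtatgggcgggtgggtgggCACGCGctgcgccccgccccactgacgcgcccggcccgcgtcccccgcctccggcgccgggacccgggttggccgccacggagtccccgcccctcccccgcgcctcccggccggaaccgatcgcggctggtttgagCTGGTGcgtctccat

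Smox and Oaz2 held 0 matches to the 3 motifs in these windows, which says only that these letters are not there. Odc1 held 2 class C sites, starting 180 and 101 bases before the gene start, and 3 N-boxes, but 0 E-boxes. Bases outside its window were not searched, so the 0 covers that window only. Among 32851 promoters of the same length in the RefSeq table, 9.27% held a class C site, 42.5% an N-box and 7.15% an E-box. These shares were not matched for base content, and the Odc1 window was 78% G or C. The table has 8 of the 10 genes by symbol, all but Srm and Azin1. Of the others with a value here, Sat1 held 1 N-box, 44 bases before its start. A match is a description of the sequence and not a site shown to be bound.

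Odc1, which encodes the rate-limiting decarboxylase, had log2 levels of 9.23 and 8.54 on the Hes1 null arrays, against 8.89 and 8.81 on the wild-type arrays. Hes1 null replicate 1 was the highest of the 4 arrays and replicate 2 the lowest. They lay 0.38 above and 0.32 below the wild-type mean. The difference was 0.03 ± 0.26 (SE, n = 2 per genotype), with a 95% interval of -0.63 to 0.69 (adjusted p = 0.991 by limma). A further probe set of Odc1 had levels of 8.87 and 8.50 on the Hes1 null arrays, against 8.73 and 8.89 in wild type. On that probe set replicate 1 lay between the wild-type arrays, and replicate 2 was again the lowest. The direction for Odc1 turned with the probe sets used: the mean of both gave -0.05.

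Srm, the spermidine synthase gene, showed the widest gap between the Hes1 null arrays among the members. Its levels were 11.96 and 10.74 on the Hes1 null arrays, against 11.64 and 11.79 on the wild-type arrays, or 3980 and 1714 against 3196 and 3544 in intensity. Replicate 1 was again the highest array and replicate 2 the lowest. The 2 Hes1 null arrays were 2.32-fold apart, a gap wider than that of 98.3% of all genes, while the wild-type gap of 0.15 exceeded that of 62.2%. The difference between genotypes was -0.37 ± 0.38 (SE, n = 2 per genotype, 95% interval -1.33 to 0.60, adjusted p = 0.883 by limma). The value depends on which Hes1 null array is read, and its negative sign comes from replicate 2. Without replicate 1 the difference was -0.97, and without replicate 2 it was 0.24, each resting on 1 Hes1 null array.

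Azin1 encodes a homologue of ornithine decarboxylase that lacks its activity and binds antizyme in its place. Its levels were 8.67 and 8.10 on the Hes1 null arrays, against 8.59 and 8.60 on the wild-type arrays. The wild-type arrays were 0.0089 apart, and the Hes1 null arrays lay 0.07 above and 0.50 below their mean. The order of the arrays was thus that of Odc1 and Srm at the extremes, and the genotypes overlapped. The difference was -0.22 ± 0.24 (SE, n = 2 per genotype, 95% interval -0.81 to 0.38, adjusted p = 0.889 by limma).

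Oaz2, an antizyme gene, had levels of 7.20 and 7.36 on the Hes1 null arrays, against 6.83 and 7.02 on the wild-type arrays. The genotypes did not overlap, and the lower Hes1 null array was 0.18 above the higher wild-type array, less than the 0.19 between the wild-type arrays themselves. The difference was 0.36 ± 0.17 (SE, n = 2 per genotype), 1.28-fold, with a 95% interval of -0.06 to 0.77. It passed neither threshold (unadjusted p = 0.0783, adjusted p = 0.662 by limma). Hes1 null replicates 1 and 2 lay 0.28 and 0.44 above the wild-type mean.

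Sat1, the acetyltransferase gene of the other route of breakdown, had levels of 10.22 and 10.80 on the Hes1 null arrays, against 10.52 and 10.48 on the wild-type arrays. Here replicate 1 was the lowest array and replicate 2 the highest, the reverse of Odc1, Srm and Azin1. The array differences from the wild-type mean were -0.28 and 0.31, and the genotype difference was 0.01 ± 0.22 (SE, n = 2 per genotype, 95% interval -0.53 to 0.56, adjusted p = 0.997 by limma). Sat1 lies on the X chromosome, and the Hes1 null array with high Sat1 is the one with low Xist. Whether the levels of Sat1 and Xist are linked was not tested.

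**Figure D2:**
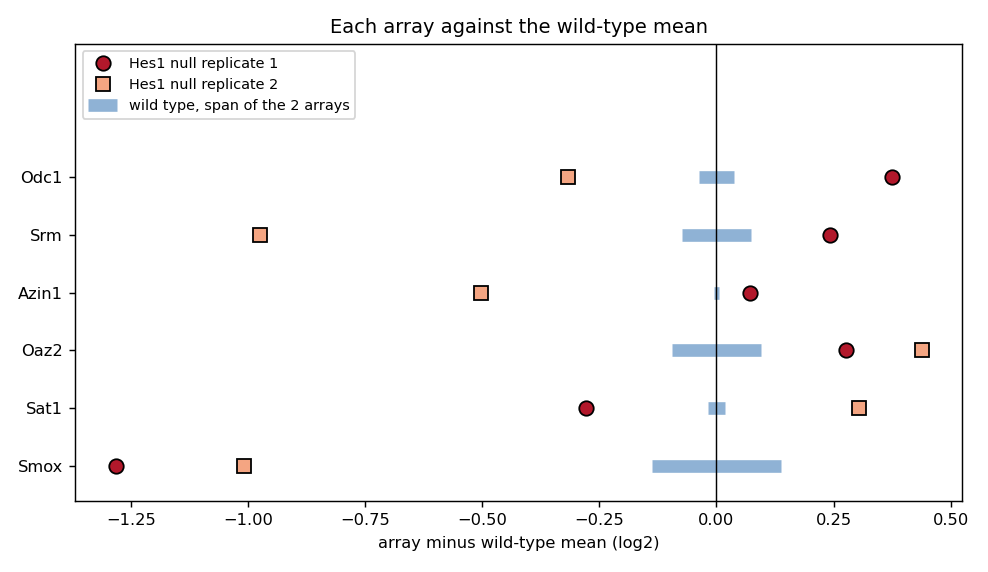
Each array minus the wild-type mean (x axis, log2) for the 6 measured genes, with Hes1 null replicate 1 as circles, replicate 2 as squares and the span of the 2 wild-type arrays as blue bars. Smox lies at -1.28 and -1.01, and the circles and squares of Odc1, Srm, Azin1 and Sat1 lie on opposite sides of the bar.

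For most members the arrays of Hes1 null marrow differed more from each other than the genotype means did. On each Hes1 null array all 6 members lay outside the wild-type pair, as did 78.6% of all genes on replicate 1 and 82.1% on replicate 2. The 2 arrays fell on opposite sides for 4 of the 6 members, against 28.7% of all genes. Of the 4, Odc1, Srm and Azin1 had replicate 1 above and replicate 2 below, as had 12.8% of all genes, and Sat1 had the reverse, as had 15.9%. The median gap between the Hes1 null arrays was 0.58 over the members and 0.25 over all genes (log2). Between the wild-type arrays it was 0.11 over both. These are descriptions of 4 arrays, with no test.

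Distances between profiles over the 4 arrays, each centred on its own mean, restate the same values and add no separate support. Odc1 was nearest to Azin1, at a root mean square distance of 0.13 (log2), and Srm was nearest to Azin1 as well, at 0.24. Sat1 and Oaz2 were nearest to each other, at 0.24, although Oaz2 was above the wild-type pair on both Hes1 null arrays and Sat1 on replicate 2 only. Smox was far from all, its nearest being Azin1 at 0.56.

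Ratios within an array do not change with a factor that multiplies all intensities of that array. They can still change with scaling that depends on the level of a gene. Smox relative to Sat1, the gene of the other breakdown route, differed from the wild-type mean ratio by -1.005 and -1.31 on Hes1 null replicates 1 and 2 (log2), while the wild-type arrays lay 0.16 on either side of it. Both Hes1 null arrays were low in this ratio by more than the wild-type spread. Smox relative to Srm differed by -1.52 on replicate 1 but by -0.04 on replicate 2, which lies within the 0.06 on either side in wild type. Srm relative to the antizyme gene Oaz2 differed by -0.04 on replicate 1 and by -1.41 on replicate 2. Odc1 relative to Azin1 differed by 0.30 and 0.19, while the wild-type arrays lay 0.04 on either side. With the other Odc1 probe set it differed by -0.01 and 0.19, with wild type 0.08 on either side, so only replicate 2 was outside the wild-type span with both probe sets.

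**Figure D3:**
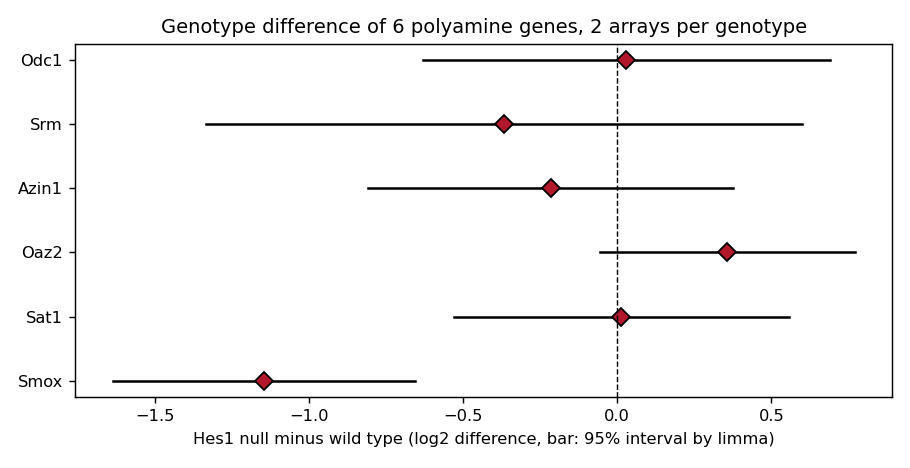
Log2 difference, Hes1 null minus wild type, of the 6 measured polyamine genes (diamonds) with 95% intervals by limma (bars, n = 2 arrays per genotype). The interval of Smox, -1.64 to -0.65, leaves out 0, and those of the other 5 include it.

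Related genes were read from a list of 33, of which 30 were measured. Limma called 0 of them at the adjusted threshold. At an unadjusted p of 0.05 there were 2 higher in Hes1 null marrow, against 3.51% of all genes, and 1 lower, against 4.78%. The median difference of the 30 was 0.11. Genotypes did not overlap for 7 higher and 4 lower genes of the 30, against 17.4% and 20.6% of all genes.

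Atp13a2, encoding a lysosomal exporter of polyamines, had levels of 9.62 and 9.98 on the Hes1 null arrays, against 9.19 and 8.99 on the wild-type arrays. Both Hes1 null arrays were high. The difference was 0.71 ± 0.19 (SE, n = 2 per genotype, unadjusted p = 0.0124, adjusted p = 0.397 by limma). Azin2, a further antizyme inhibitor gene, had levels of 6.64 and 6.58 on the Hes1 null arrays, against 6.17 and 6.19 in wild type, a difference of 0.43 ± 0.13 (unadjusted p = 0.0224, adjusted p = 0.479 by limma). Apip, an enzyme gene of the methionine salvage that recycles the by-product of spermidine and spermine synthesis, was low on both Hes1 null arrays, at 7.28 and 6.99, against 7.57 and 7.74 in wild type. Its difference was -0.53 ± 0.18 (unadjusted p = 0.0310, adjusted p = 0.540 by limma). The other 5 measured genes of salvage and S-adenosylmethionine supply had overlapping genotypes.

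Measured genes of the family and of substrate supply had differences from -0.13 to 0.43, those of hypusine formation from -0.12 to 0.48 and those of transport from -0.15 to 0.71, the last being Atp13a2. From these classes 3 further genes were read whatever their values. Arg1, the arginase gene of ornithine supply, was dim, at 4.50 and 4.72 on the Hes1 null arrays, against 4.87 and 4.61 in wild type. Eif5a, whose product carries the hypusine made from spermidine, had levels of 12.53 and 12.21 in Hes1 null, against 12.31 and 12.38 in wild type, a difference of 0.03 ± 0.13. Slc3a2, the heavy chain of amino acid transporters also linked to polyamine transport, had levels of 11.47 and 11.21 in Hes1 null, against 11.13 and 11.17 in wild type, and a difference of 0.19 ± 0.13. The adjusted p of these 3 by limma was 0.901, 0.979 and 0.791. Mat2a had no probe set with its symbol alone and was not analysed here.

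Myc showed the same order of arrays as Srm. It was among 9 of the 30 related genes with replicate 1 above and replicate 2 below the wild-type pair. Of all genes, 12.8% had that pattern. The levels of Myc were 11.56 and 10.02 on the Hes1 null arrays, against 11.14 and 11.42 on the wild-type arrays. Replicate 1 lay 0.29 above the wild-type mean and replicate 2 lay 1.26 below it, where Srm lay 0.24 above and 0.97 below. The genotype difference of Myc was -0.49 ± 0.49 (SE, n = 2 per genotype, adjusted p = 0.874 by limma). Without Hes1 null replicate 1 it was -1.26, and without replicate 2 it was 0.29, each resting on 1 Hes1 null array. On the array where Myc, Srm, Odc1 and Azin1 were low, Kit was also at its lowest, at 6.39, but unlike them it was below the wild-type pair on the other Hes1 null array too. None of the other measured genes listed for the MYC network had replicate 1 above and replicate 2 below the wild-type pair. Whether their levels are linked to that of Myc, in either direction, was not tested. Mycn lay at -0.22 and 0.31 from the wild-type mean on Hes1 null replicates 1 and 2, and Mxd1 at 0.22 and 1.09. Max and Mnt were above the wild-type pair on both Hes1 null arrays, and Mxi1 was below it on both. The part of Myc, of cell composition or of sample handling in the spread between the Hes1 null arrays was not tested.

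**Figure D4:**
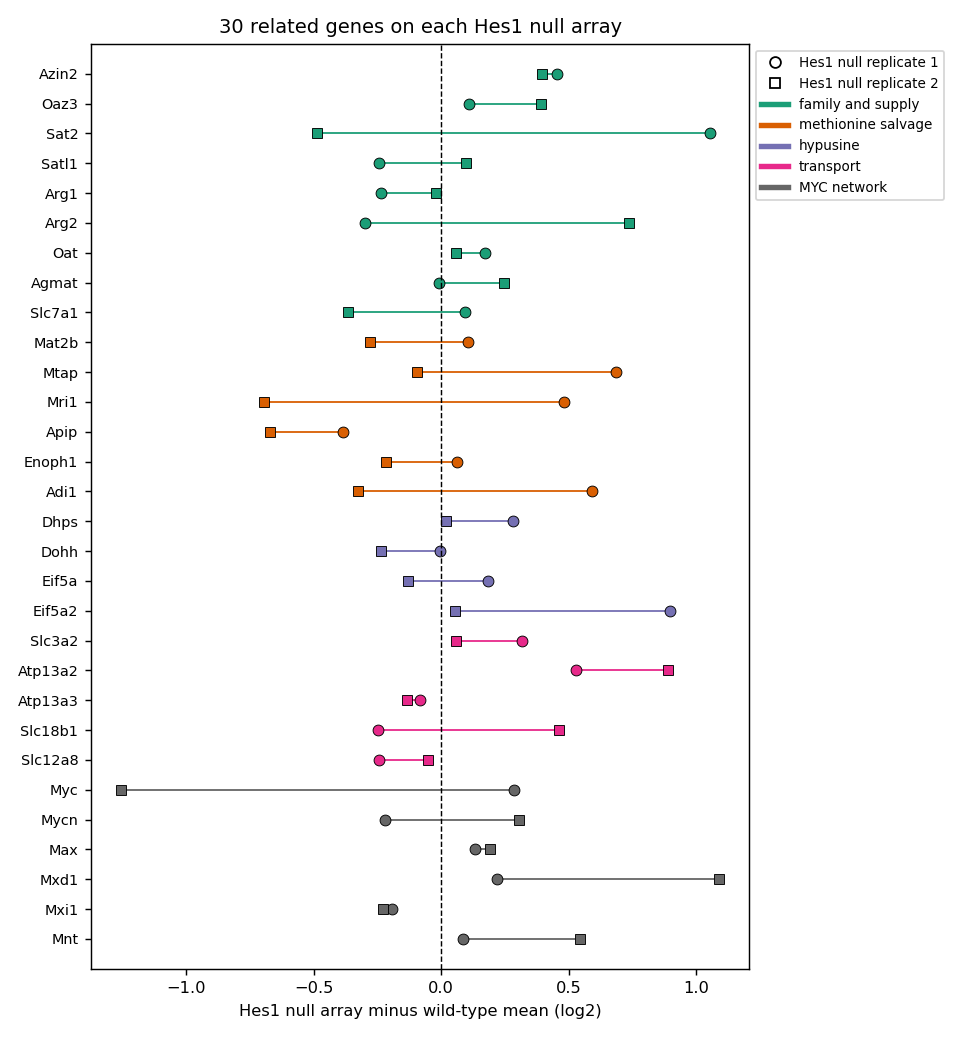
Each Hes1 null array minus the wild-type mean (x axis, log2) for the 30 measured related genes, coloured by class, with replicate 1 as circles and replicate 2 as squares joined by a line. Azin2 and Atp13a2 lie to the right on both arrays, Apip to the left on both, and Myc at 0.29 and -1.26.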

How the data were processed

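Each sample of total marrow RNA had 1 Affymetrix mouse gene array. The authors deposited linear probe set intensities. Per the submitters' processing notes they come from RMA and Affymetrix Expression Console, whose versions are not given in the sources used here. Log2 was taken with nothing added, and 0 sample columns were left out. Of 35556 probe sets, 21789 have 1 symbol, 1621 several, and 12146 are not listed. The single-symbol probe set with the highest mean stood for a gene, which gave 19938 genes. Array medians ran from 65.0 to 67.3, and the number of arrays limits the precision.

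A linear model with a genotype term was fitted to every gene in limma 3.58.1 (R 4.3.3), with a two-sided test moderated by eBayes along an intensity trend and Benjamini-Hochberg adjustment over all genes. The test was tried on simulated data, where the adjusted threshold called 7.7% of 2-fold changes and 82.9% of 4-fold changes. A gene not called is thus not shown to be unchanged. A 2 against 2 exact permutation test cannot go below 0.333, so none was run. Members and lists were chosen with earlier results of these data known. Genes named are the 10 members, Hes1, related genes with an unadjusted p under 0.05 or a difference of at least 2-fold, and Myc, Arg1, Eif5a, Mat2a and Slc3a2. Xist, the Y-linked genes and the marker genes were read as checks of the samples, and Kit, Cd28 and Lpl were singled out after their values were seen. Alternatives were the replicate number as a block, other scaling, filters on dim genes, other moderation and weights, other probe set rules and leaving out each array. Promoters are RefSeq sequences of GRCm38.p6.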

Additional observations from a re-analysis of the deposited data

How the results depend on the processing

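The count of genes called over all genes, 29, was 89 with the replicate block, 45 with array weights, 17 among genes at or above the 25th percentile of level and 5 among those at or above the median. It ranged from 6 to 999 when each array was left out. Of the polyamine members, 0 were called under every alternative that kept all arrays, the replicate block included. With an array left out this changed for Srm only, without Hes1 null replicate 1. That fit had by far the most genes called of all alternatives. Members with non-overlapping genotypes ranged from 2 to 6, the 6 being reached without either Hes1 null array, where 1 array faces a pair. Taken alone, Hes1 null replicate 1 lay outside the wild-type pair for 78.6% of all genes and replicate 2 for 82.1%. Of the related genes, 0 were called when all arrays were kept, and with an array left out this changed for Myc only, again without Hes1 null replicate 1. Samples with the same replicate number share only a number in the labels, and their deviations from the genotype means correlated at 0.0505 across genes. Smox kept its sign under 12 of 12 alternatives, from -1.28 to -1.01, with unadjusted p from 0.00110 to 0.0243 and adjusted p from 0.0561 to 1. Oaz2 kept its sign as well, from 0.26 to 0.45. With an array left out, signs turned for Odc1 (-0.32 to 0.38), Srm (-0.97 to 0.24), Sat1 (-0.28 to 0.31), Azin1 (-0.50 to 0.072), Myc (-1.26 to 0.29) and Eif5a (-0.13 to 0.19), and for Odc1 also with the mean of its probe sets (-0.048). In these leave-one-out fits a lone array is assumed to vary like the others. Testing each single-symbol probe set, an alternative chosen after seeing the data, called 30 probe sets and 0 of the members.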
